A study of Mus musculus with 4 samples.

Results

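The 38 genes described here make up the redox defense of the cell: the transcription factor Nrf2 (gene Nfe2l2) and its repressor Keap1, target enzymes of Nrf2, the glutathione and thioredoxin systems, the peroxiredoxins, superoxide dismutases and catalase, the enzymes that supply NADPH, and ferritin. They were taken by symbol from a table of expression in newborn mouse keratinocytes, and all 38 were found among 23970 gene symbols. Each reached a mean of 1 FPKM (fragments mapped to a gene, scaled to its length and to the size of the library) over the libraries, so none was lost to the filter on low values. The keratinocytes, the main cells of the epidermis, came from newborn mice and were grown, at passage 0, over J2-3T3 feeder fibroblasts in medium low in calcium, with no further treatment. The feeders had been taken off when RNA was extracted. Control cells gave 2 libraries and Ovol2-deficient cells 2. Ovol2 is a zinc-finger transcription factor of epithelia. The strain, the allele, any Cre driver and whether a library came from 1 animal or several is not stated in any label. The p-values therefore measure only the spread between these libraries, which may be technical.

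In resting cells Keap1 delivers Nrf2 to a cullin ubiquitin ligase for destruction. Oxidants and electrophiles modify cysteines of Keap1, Nrf2 accumulates, pairs with small Maf proteins and binds antioxidant response elements near genes of glutathione synthesis, thioredoxin recycling, NADPH supply and detoxification. The system is regulated largely through the stability of the Nrf2 protein, which RNA does not measure. In skin it is known for protecting keratinocytes against ultraviolet light and reactive chemicals.

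In the Ovol2-deficient libraries 1 of the 38 genes, the glutathione transferase Gstm1, rose in the test across all genes (limma on log2(FPKM + 1), adjusted p under 0.05), none fell and 37 were not called. Over all 11350 genes tested, 1.35% were called, so the count alone sets the 38 genes apart little. The Nrf2 targets Nqo1, Hmox1 and Me1, picked here after their values were seen, did not pass. Their mean values were 1.41 to 2.04 times as high in the deficient libraries, with Nqo1 above Gstm1 in log2 fold change. Gsr, Tkt and Taldo1 went the other way, with log2 fold changes of -0.31, -0.27 and -0.21 and both deficient values below both controls. Keap1 was also lower in both deficient libraries (-0.17). For Nfe2l2 itself, Gclc, G6pdx and Pgd the groups overlapped. At an unadjusted p under 0.05 there were 9 genes higher and 2 lower, beside 9.49% and 7.94% of all tested genes. Both deficient values lay above both controls for 17 of the 38 and below them for 6, where 24.1% and 24.0% of all tested genes did so, 48.1% in all. The median log2 fold change of the 38 was 0.11, and that of all tested genes was -0.0014. Without Ovol2-deficient library 1 the median of the 38 was 0.041 and that of all tested genes was -0.025. In bulk RNA a change in the number of cells of a type and a change in RNA per cell cannot be told apart.

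The authors' deposited table, a separate comparison of the same libraries, called 5 of the 37 members with an adjusted p higher (Nqo1, Hmox1, Gstm1, Me1 and Fth1) and 0 lower, where 2.33% and 2.10% of 11582 rows were called and 4.43% in either direction. Both tests used the same 4 libraries and are not independent of each other. With 2 libraries a group an exact permutation test cannot go below p = 0.333, so every test here rests on the model.

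Depth is not recorded in the tables. Genes seen in a single library show what 1 read is worth in the authors' deposited table, and this gave about 12400000 to 14800000 counted reads a library. That table's mean normalized signal ran from 16.8 for Gpx2 to 12135 for Fth1 among the 38 genes. Ovol2 stood at FPKM 2.68 and 2.14 in control cells against 1.45 and 0.941 in deficient cells, lower in both but not called in limma (log2 fold change -0.64, adjusted p = 0.129). The authors' deposited table gave Ovol2 a log2 fold change of -0.36 (adjusted p = 0.441), at a mean normalized signal of 48.6. Keratinocyte markers were high in all 4 libraries, with a summed FPKM over 10 genes of 8126 and 7609 in control cells against 7311 and 6292 in deficient cells. The counting is not stated to use strand, and 8 of the 38 genes share exon bases with a gene on the opposite strand (G6pdx, Gclm, Gss, Keap1, Me1, Prdx2, Prdx5 and Txnrd2), so their values are less certain.

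FPKM, which is scaled to transcript length, allows levels to be set side by side. Ferritin heavy chain Fth1, ferritin light chain Ftl1 and the omega-class transferase Gsto1 were the most abundant, and together they held 47.0 to 48.2% of the summed FPKM of the 38 genes. The 38 together made up 1.296% and 1.32% of all FPKM in control cells against 1.42% and 1.405% in deficient cells. The lowest were the peroxidases Gpx2 and Gpx3.

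**Figure D1:**
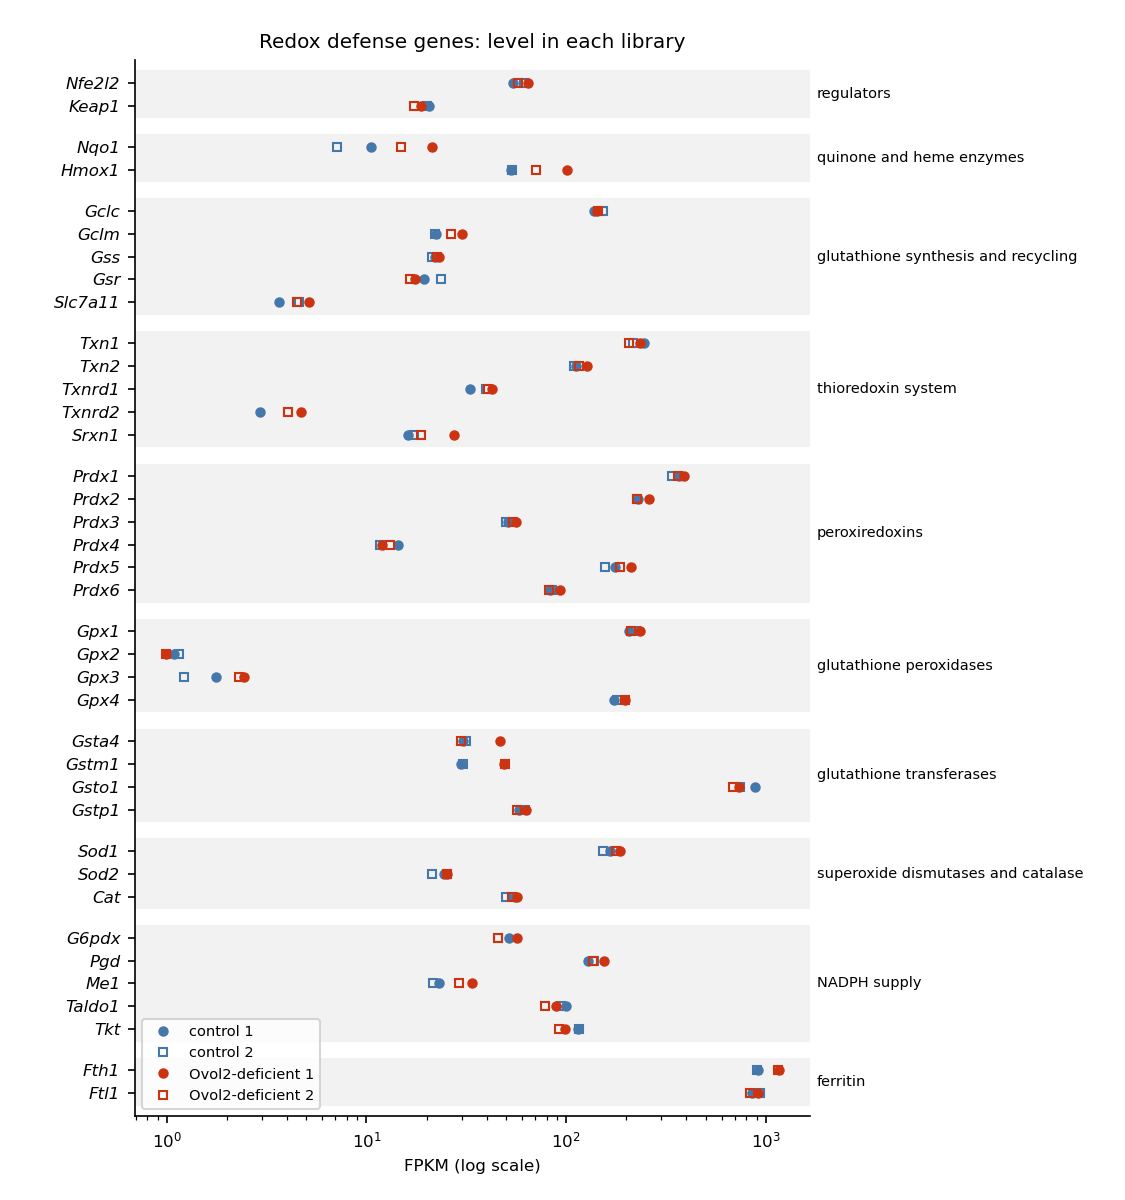
FPKM of the 38 redox defense genes in each library, on a logarithmic axis, grouped by role, with controls in blue and Ovol2-deficient libraries in red. Most genes lie within a narrow span over the 4 libraries, and Nqo1, Hmox1 and Gstm1 show red symbols to the right of the blue ones.

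Promoter sequences are shown because antioxidant response elements are the sites through which Nrf2 acts. RefSeq windows (GRCm38.p6) of 250 bases before to 50 after each start were found for 33 of the 38 genes. The core letters TGACNNNGC were searched on both strands, and so was the AP-1 site TGANTCA, which can overlap the core, as in TGACTCAGC. The core was present in windows of 9 of the 33 genes (27.3%), where 14.0% of 27025 symbols had it, and the AP-1 site in 4 of the 33 (12.1%), where 8.97% had it. A match describes the letters only. The 9 matches of the core follow with 10 bases on each side, 5′ to 3′ on the strand of the gene, and capitals mark the match, written as its reverse complement where the core is on the other strand.
Nfe2l2 (chr2:75704885-75704913, minus strand): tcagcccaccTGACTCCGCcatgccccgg
Gclm (chr3:122245413-122245441, plus strand): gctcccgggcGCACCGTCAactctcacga
Srxn1 (chr2:152105542-152105570, plus strand): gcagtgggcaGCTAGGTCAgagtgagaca
Txnrd1 (chr10:82859104-82859132, plus strand): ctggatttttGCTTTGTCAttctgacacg
Prdx1 (chr4:116685456-116685484, plus strand): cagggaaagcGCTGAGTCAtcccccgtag
Sod1 (chr16:90220696-90220724, plus strand): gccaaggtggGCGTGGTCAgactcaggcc
Me1 (chr9:86695902-86695930, minus strand): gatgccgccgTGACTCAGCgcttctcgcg
Pgd (chr4:149166061-149166089, minus strand): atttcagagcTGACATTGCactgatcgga
G6pdx (chrX:74428919-74428947, minus strand): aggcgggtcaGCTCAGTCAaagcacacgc
In Me1 and Prdx1 the match overlapped an AP-1 site. Of these 9 genes, Gclm, Srxn1, Txnrd1, Sod1 and Me1 had both deficient values above both controls, and in Nfe2l2, Prdx1, Pgd and G6pdx the groups overlapped. Of all 38 genes, with or without a match, 17 had both deficient values above both controls, beside 24.1% of all tested genes. A link between the motif and the change was not tested. Gstm1 and Nqo1 had no match of either motif in these windows. Bases outside the windows were not searched, so an element lying further away would be missed.

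Of the regulators, Nfe2l2 stood at FPKM 54.1 and 61.6 in control cells against 64.7 and 57.6 in deficient cells. The groups overlapped, and the log2 fold change was 0.08 with a 95% interval of -0.17 to 0.33 (limma, adjusted p = 0.774). Keap1, which binds Nrf2 in the cytoplasm, was at 20.7 and 20.1 in control cells against 18.9 and 17.2 in deficient cells. Both deficient values were lower, with a log2 fold change of -0.17 (95% interval -0.40 to 0.06, adjusted p = 0.430 in limma), so a small change of either regulator's RNA cannot be told from none with these libraries.

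Nqo1, a quinone reductase and a standard readout of Nrf2 activity (mm10, minus strand of chromosome 8, 107388225 to 107403206), had an FPKM of 10.6 and 7.16 in control cells against 21.2 and 14.9 in deficient cells. Both deficient libraries were above both controls, and in each group library 1 was well above library 2. Mean FPKM was 8.87 ± 2.42 in controls and 18.1 ± 4.49 in deficient libraries (SD, n = 2 each), a log2 fold change of 0.95 ± 0.21 (SE), which did not pass in limma (adjusted p = 0.0742). With each library left out in turn, the log2 fold change of Nqo1 ran from 0.70 without control 2 to 1.20 without control 1. The authors' deposited table gave Nqo1 a log2 fold change of 0.71 (adjusted p = 0.00435).

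Hmox1, heme oxygenase 1, breaks heme down to biliverdin, iron and carbon monoxide (chromosome 8, 75093621 to 75100589, plus strand). It stood at 53.1 and 53.7 in control cells against 100.6 and 70.5 in deficient cells. Both deficient values were higher, and library 1 was far above library 2. The log2 fold change of 0.65 (SE 0.16) was not called in limma (adjusted p = 0.0989), and it was 0.90 with deficient library 2 left out and 0.39 with library 1 left out. The authors' deposited table gave 0.58 for Hmox1 (adjusted p = 0.000822).

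**Figure D2:**
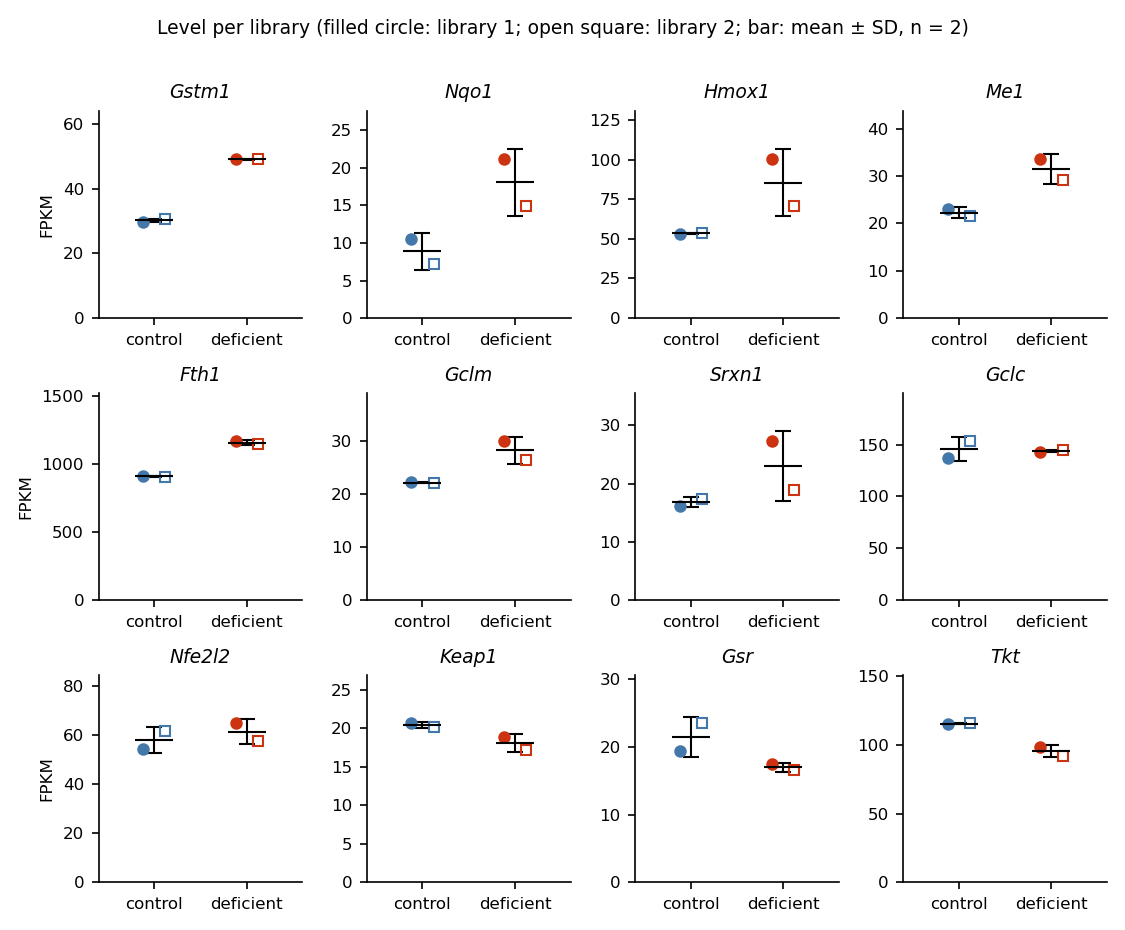
FPKM of 12 of the genes in each library, with the vertical axes starting at 0. Circles are library 1 and squares library 2 of each group, and bars are the mean ± SD (n = 2). Gstm1, Nqo1, Hmox1, Me1, Fth1, Gclm and Srxn1 have both deficient values above both controls, Keap1, Gsr and Tkt have them below, and Nfe2l2 and Gclc overlap.

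Among the 5 genes of glutathione synthesis and recycling none was called by limma, and their median log2 fold change was 0.07. Glutamate-cysteine ligase, the rate-limiting enzyme, has a pair of subunits. Gclc, the catalytic subunit, was at FPKM 137.2 and 153.6 in control cells against 143.0 and 144.7 in deficient cells, with the deficient values between the controls (log2 fold change -0.01, 95% interval -0.24 to 0.22). Gclm, the modifier subunit that raises the activity of Gclc, was at 22.3 and 22.0 in control cells against 30.0 and 26.4 in deficient cells. Both deficient values of Gclm were higher, with a log2 fold change of 0.33 (SE 0.10, adjusted p = 0.1497 in limma), and its promoter window holds a core match. Gsr, the reductase that turns oxidised glutathione back to its reduced form, was at 19.4 and 23.5 in control cells against 17.5 and 16.6 in deficient cells. Both deficient values of Gsr were lower (log2 fold change -0.31, adjusted p = 0.233 in limma), the lowest fold change among the 38. Gss, glutathione synthetase, and Slc7a11, the cystine importer, had log2 fold changes of 0.07 and 0.19 and did not pass. No test of the difference between Gclm and Gclc was made.

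Of the 5 thioredoxin genes 0 were called in limma (1 had an unadjusted p under 0.05), and 4 had both deficient values above both controls, beside 9.49% and 24.1% of all tested genes. Srxn1, sulfiredoxin, which repairs over-oxidised peroxiredoxins, was at FPKM 16.2 and 17.4 in control cells against 27.3 and 18.8 in deficient cells. Library 1 of the deficient group was high, and library 2 was only a little above the controls. The log2 fold change of 0.41 (SE 0.16, adjusted p = 0.259 in limma) was 0.67 with deficient library 2 left out and 0.16 with library 1 left out. Besides the core match after its start, the Srxn1 window holds a pair of AP-1 sites before it, and these are in capitals in the sequence that ends at the start of the annotated gene (chr2:152105274-152105515, plus strand).
Srxn1: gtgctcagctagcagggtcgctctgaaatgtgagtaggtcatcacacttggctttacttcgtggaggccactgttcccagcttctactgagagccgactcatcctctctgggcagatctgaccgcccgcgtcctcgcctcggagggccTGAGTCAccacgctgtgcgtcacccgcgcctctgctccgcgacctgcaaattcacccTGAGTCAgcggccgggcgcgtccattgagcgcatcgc
Txnrd1, the cytosolic thioredoxin reductase, was at 33.1 and 39.5 in control cells against 42.3 and 40.7 in deficient cells, higher in both by a small step (log2 fold change 0.19, adjusted p = 0.426 in limma). Txnrd2, its mitochondrial counterpart, was far less abundant, with a log2 fold change of 0.27 (adjusted p = 0.445). The thioredoxins themselves were abundant, with Txn1 (cytosolic) at 206.8 to 244.3 and Txn2 (mitochondrial) at 110.1 to 127.4 over the 4 libraries, and neither passed.

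The 6 peroxiredoxins, which reduce hydrogen peroxide with electrons from thioredoxin or, for Prdx6, glutathione, included some of the most abundant genes of the set, from Prdx1 at FPKM 337.3 to 389.7 down to Prdx4, the form of the endoplasmic reticulum, at 11.7 to 14.4. None was called in limma, and their median log2 fold change was 0.10. At an unadjusted p under 0.05 there was 1, beside 9.49% of all tested genes higher and 7.94% lower. That gene was Prdx5, found in mitochondria, peroxisomes and cytosol. It was at 175.0 and 156.9 in control cells against 210.7 and 187.2 in deficient cells. Both deficient values were higher (log2 fold change 0.26, adjusted p = 0.273). The 95% intervals of the other 5 all included 0, and their bounds ran from -0.35 for Prdx4 to 0.34 for Prdx2.

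Of the 4 glutathione peroxidases 0 were called in limma. Gpx3, the secreted form, was at FPKM 1.77 and 1.22 in control cells against 2.45 and 2.31 in deficient cells. Both deficient values were higher, at a level near the filter of 1 FPKM (log2 fold change 0.45 ± 0.16 SE, adjusted p = 0.219). Gpx4, which reduces lipid peroxides and restrains ferroptosis, was at 174.1 and 180.0 in control cells against 197.2 and 198.2 in deficient cells. Its groups did not overlap and the replicates lay close together, but the step was small (log2 fold change 0.16, adjusted p = 0.424). Gpx1, the abundant cytosolic form, and Gpx2 had log2 fold changes of 0.06 and -0.09.

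The glutathione transferases, which couple glutathione to electrophiles, held the single called gene. Gstm1, of the mu class (chromosome 3, 108012255 to 108017973, minus strand), was at FPKM 29.8 and 30.6 in control cells against 49.1 and 49.4 in deficient cells. Both deficient libraries were higher, and the replicates of each group were almost level. Mean FPKM was 30.2 ± 0.542 in controls and 49.2 ± 0.1501 in deficient libraries (SD, n = 2 each), a 1.63-fold higher level and a log2 fold change of 0.69 ± 0.09 (SE) (limma, adjusted p = 0.0353). The fold change was 0.67 to 0.70 on the log2 scale with any 1 library left out, but the call was lost without Ovol2-deficient library 1 (adjusted p = 0.210) or library 2 (0.158), under quantile normalization (0.0548), in limma without its variance trend (0.0659) and with no filter on low values (0.224). The mu-class genes are close copies in one cluster, so how reads were shared between them is uncertain. The 250 bases before the start of Gstm1, shown because it is the called gene, are in lower case throughout since neither motif is in them (chr3:108017974-108018223, minus strand).
Gstm1: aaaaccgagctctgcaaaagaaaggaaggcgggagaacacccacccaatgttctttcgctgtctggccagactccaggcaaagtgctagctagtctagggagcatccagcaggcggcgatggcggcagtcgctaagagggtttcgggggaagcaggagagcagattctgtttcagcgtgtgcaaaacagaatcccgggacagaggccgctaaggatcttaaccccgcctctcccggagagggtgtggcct
Gsta4, of the alpha class, which handles the lipid aldehyde 4-hydroxynonenal, was at 30.5 and 31.4 in control cells against 46.4 and 29.6 in deficient cells. Only deficient library 1 was high and the groups overlapped (log2 fold change 0.25, adjusted p = 0.558). Gsto1 was at 879.3 and 745.8 in control cells against 730.7 and 687.1 in deficient cells, lower in both (log2 fold change -0.19, adjusted p = 0.478). Gstp1, of the pi class, was level at 56.6 to 63.0.

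**Figure D3:**
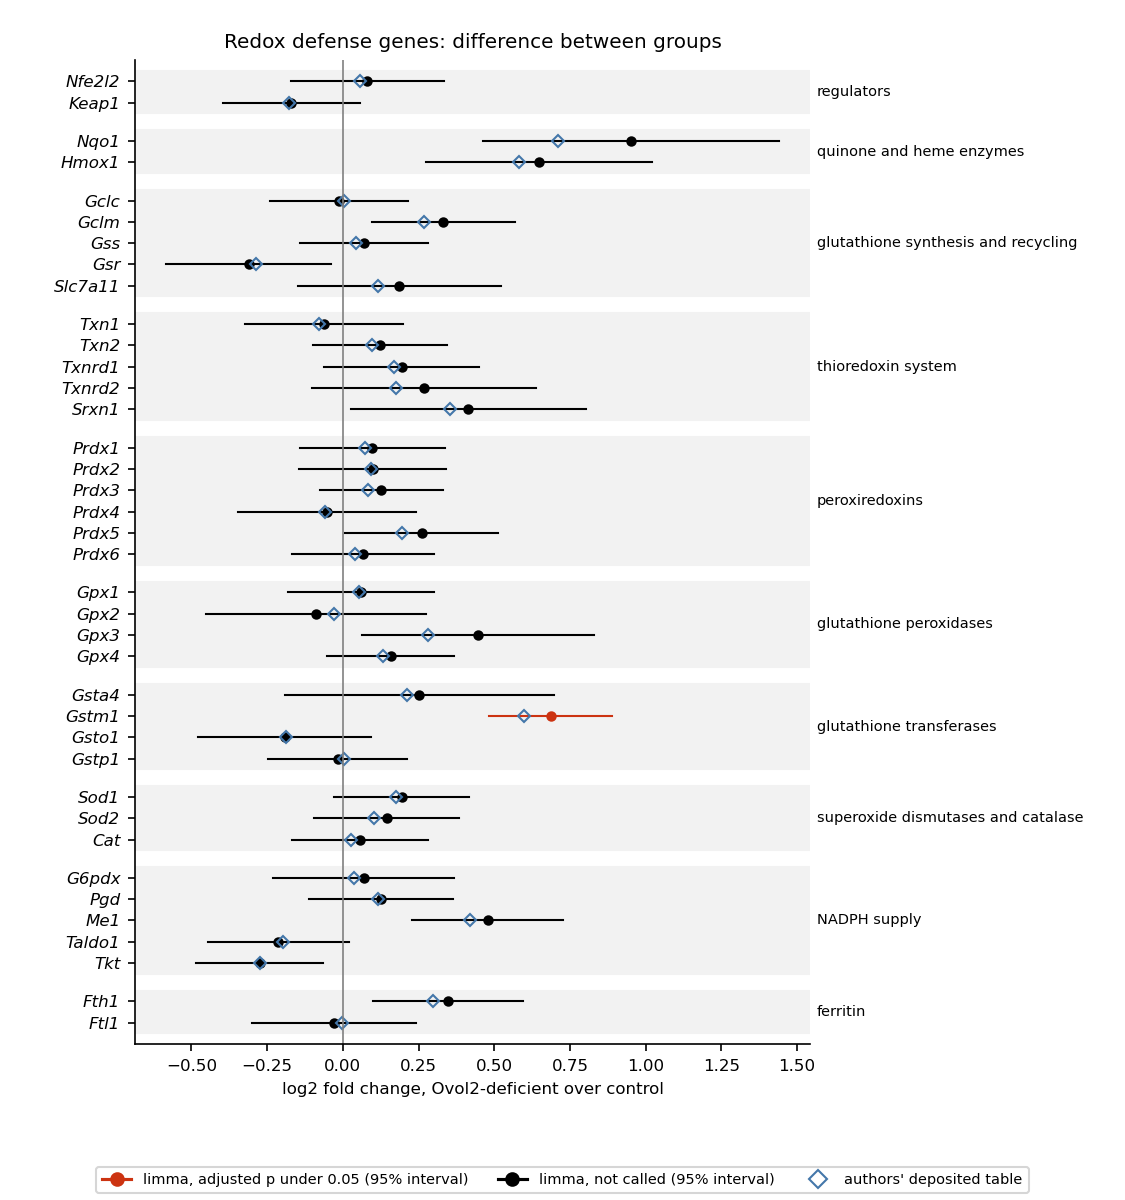
Log2 fold change of each of the 38 genes in Ovol2-deficient over control libraries, with the 95% interval from limma, and the value of the authors' deposited table as an open diamond. Gstm1, in red, is the called gene at 0.69, and Nqo1, at 0.95, has a wider interval.

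Superoxide dismutases turn superoxide into hydrogen peroxide, which catalase breaks down. Sod1, the cytosolic copper-zinc enzyme, was at FPKM 165.5 and 152.3 in control cells against 185.4 and 178.1 in deficient cells, higher in both (log2 fold change 0.19, adjusted p = 0.356 in limma). Sod2, of mitochondria, and Cat had log2 fold changes of 0.14 and 0.06 and did not pass.

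NADPH powers the reductases of both systems. Me1, cytosolic malic enzyme (chromosome 9, 86581371 to 86695953, minus strand), was at FPKM 23.0 and 21.4 in control cells against 33.6 and 29.2 in deficient cells. Both deficient values were higher (log2 fold change 0.48 ± 0.11 SE, adjusted p = 0.0759 in limma). The authors' deposited table called Me1 higher (0.42, adjusted p = 0.0253). Its window has a core match overlapping an AP-1 site right at the start. The first enzymes of the pentose phosphate pathway, G6pdx and Pgd, overlapped between the groups, with log2 fold changes of 0.07 and 0.13. The later enzymes of that pathway are non-oxidative and make no NADPH themselves. Tkt, transketolase, was at 115.2 and 116.0 in control cells against 98.6 and 92.4 in deficient cells. Both deficient values of Tkt were lower (log2 fold change -0.27 ± 0.09 SE, adjusted p = 0.175 in limma), and the authors' deposited table did not call it (adjusted p = 0.0827). Taldo1, transaldolase, was at 99.5 and 94.6 in control cells against 89.0 and 78.5 in deficient cells, again lower in both (log2 fold change -0.21, adjusted p = 0.335 in limma).

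Ferritin stores iron in a shell of both chains. Fth1, which has the ferroxidase activity, was at FPKM 910.3 and 906.2 in control cells against 1168 and 1144 in deficient cells. Both deficient values were higher, by 1.27 times on average (log2 fold change 0.35 ± 0.10 SE, adjusted p = 0.1499 in limma). The authors' deposited table called Fth1 higher (0.30, adjusted p = 0.0314). Ftl1 was at 848.7 and 936.3 in control cells against 915.4 and 833.1 in deficient cells, with overlap and a log2 fold change of -0.03.

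The Ovol2-deficient libraries differed from each other. Of the 38 genes, 34 were higher in deficient library 1 than in library 2, where 62.1% of all tested genes were, and 20 were higher in control 1 than in control 2, where 53.3% were. The median of the 38 genes relative to the control mean was 0.16 in deficient library 1 and 0.04 in library 2. That of all tested genes was 0.024 and -0.025. Total FPKM was 422246 in deficient library 1 and 394321 in library 2, and the fit of all 4 libraries did not rescale for this. As a share of all FPKM the 38 genes stood at 1.42% and 1.405%. Of the 4 genes with the largest differences between those libraries, which were chosen after their values were seen, Hmox1, Srxn1, Gsta4 and Nqo1, all were higher in library 1. The suprabasal keratinocyte markers, genes of the differentiating layers, had a summed FPKM over 9 genes of 1822 in deficient library 1 and 1297 in library 2. In controls 1 and 2 the sum was 1525 and 1131. A sum follows its most abundant genes and need not stand for each marker. The part of these markers in the values of the 38 genes was not tested.

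**Figure D4:**
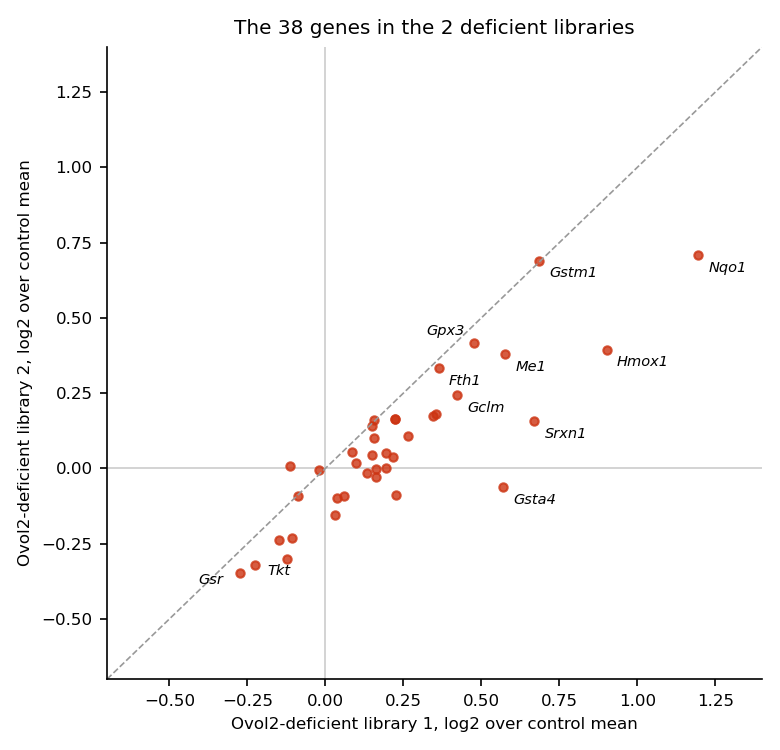
Each of the 38 genes in deficient library 1 (horizontal) and deficient library 2 (vertical), as log2(FPKM + 1) minus the control mean, with a dashed line where both are equal. Gstm1 lies on the line, while Hmox1, Nqo1, Srxn1 and Gsta4 lie well below it, higher in library 1.

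Other genes of the pathway were taken from 6 lists with 116 genes, of which 91 were tested. Of these 4 rose (Txnip, Mgst1, Sod3 and Gsta3), 0 fell in limma, and 87 were not called, with a median log2 fold change of 0.10. Over all tested genes 0.837% were called higher and 0.511% lower. At an unadjusted p under 0.05 there were 22 higher and 5 lower of the 91, beside 9.49% and 7.94% of all tested genes. The authors' deposited table called 8 higher and 1 lower of 92, beside 2.33% and 2.10% of its rows. Gsta3 passed the filter on low values only through the deficient libraries, where it was high, so its call gives the count no support.

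Txnip, which binds and inhibits thioredoxin and is induced by glucose, was at FPKM 59.9 in each control and 98.6 and 97.2 in the deficient libraries. The replicates were almost level (log2 fold change 0.70 ± 0.09 SE, adjusted p = 0.0353 in limma). Mgst1, a microsomal glutathione transferase, was at 190.3 and 185.6 in control cells against 267.4 and 303.0 in deficient cells, higher in both (log2 fold change 0.60, adjusted p = 0.0473). Sod3, the extracellular superoxide dismutase, was at 19.4 and 22.8 in control cells against 32.0 and 35.2 in deficient cells, higher in both (log2 fold change 0.65, adjusted p = 0.0473). Gsta3, an alpha-class transferase, was low, at 0.592 and 0.4999 in control cells against 2.06 and 1.75 in deficient cells (log2 fold change 0.91, adjusted p = 0.049994), with both controls under the filter of 1 FPKM. Without either deficient library none of the 4 was called. Without control 1 Mgst1 (adjusted p = 0.0748) and Sod3 (0.0550) were not called, and without control 2 Mgst1 (0.119) and Gsta3 (0.0804) were not. The other microsomal transferases had lower values in deficient cells and were not called, Mgst2 at 12.97 and 9.995 in control cells against 7.62 and 9.02 in deficient cells, and Mgst3 at 49.6 and 49.5 against 32.9 and 40.3 (adjusted p = 0.206 and 0.111 in limma).

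Of 33 tested partners and further targets of Nrf2, 0 were called in limma, but 12 were higher and 0 lower at an unadjusted p under 0.05, beside 9.49% and 7.94% of all tested genes. Both deficient values lay above both controls for 22 of the 33 and below them for 0, where 24.1% and 24.0% of all tested genes did so. With a filter of mean FPKM 5, 3 of the 30 tested genes of the list were called higher, where 152 of all 8761 tested genes were. Without control 2, 23 genes of the list lay above the remaining control and 5 below it, where 4004 and 4437 of all 11350 tested genes did so. Among the lower genes there was Slc40a1, the iron exporter ferroportin, named after its values were seen, with a log2 fold change of -1.10. Slc40a1 stood at FPKM 12.7 and 4.90 in control cells against 5.41 and 5.33 in deficient cells, so that value rests on control 1 alone. With all 4 libraries its groups overlapped (log2 fold change -0.50). The median log2 fold change of the list was 0.19, and 0.12 without control 2. Cbr3, a carbonyl reductase, was at FPKM 6.08 and 4.29 in control cells against 9.75 and 8.10 in deficient cells (log2 fold change 0.69, adjusted p = 0.0930 in limma). Adh7, an alcohol dehydrogenase of epithelia, was at 5.92 and 5.57 against 10.0484 and 8.88 (log2 fold change 0.63, adjusted p = 0.0531). Both genes were higher in both deficient libraries and neither passed. The authors' deposited table called 3 of the list higher: the autophagy adaptor Sqstm1 (adjusted p = 0.000534), the small Maf gene Maff (0.0314) and the heme transporter Slc48a1 (0.0161).

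In the list of glutathione turnover, 1 of 13 tested genes had both deficient values above both controls and 3 had them below, beside 24.1% and 24.0% of all tested genes. The median log2 fold change of the list was -0.0046, and it was 0.14 without control 1, -0.16 without control 2 and -0.08 without deficient library 1. Glrx, glutaredoxin, was at FPKM 78.4 and 65.0 in control cells against 101.04 and 108.0 in deficient cells (log2 fold change 0.54, adjusted p = 0.0672 in limma). The authors' deposited table called Glrx higher (adjusted p = 0.0121). Cth, which makes cysteine from cystathionine, was at 16.4 and 18.7 in control cells against 12.8 and 13.01 in deficient cells, lower in both (log2 fold change -0.41, adjusted p = 0.106). Glrx5, of iron-sulfur cluster assembly, had a log2 fold change of -0.21.

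Other genes that stood out of their lists did not pass in limma either. Xdh, xanthine oxidoreductase, which can produce superoxide, was at FPKM 42.7 and 45.04 in control cells against 53.5 and 65.5 in deficient cells (log2 fold change 0.42, adjusted p = 0.123). The authors' deposited table called Xdh higher (adjusted p = 0.0260). Nox4, an NADPH oxidase, had a log2 fold change of 0.33. Mthfd1, a folate-pathway enzyme that makes NADPH, was at 27.6 and 31.1 in control cells against 21.3 and 21.1 in deficient cells, lower in both (log2 fold change -0.45, adjusted p = 0.0733), and the authors' deposited table called it lower (adjusted p = 0.00766). Me2 (-0.15), Msrb1 (-0.24) and Nxn (-0.20) were also lower in both deficient libraries. Gpx5 and Gpx6 were listed at 0 in all 4 libraries.

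**Figure D5:**
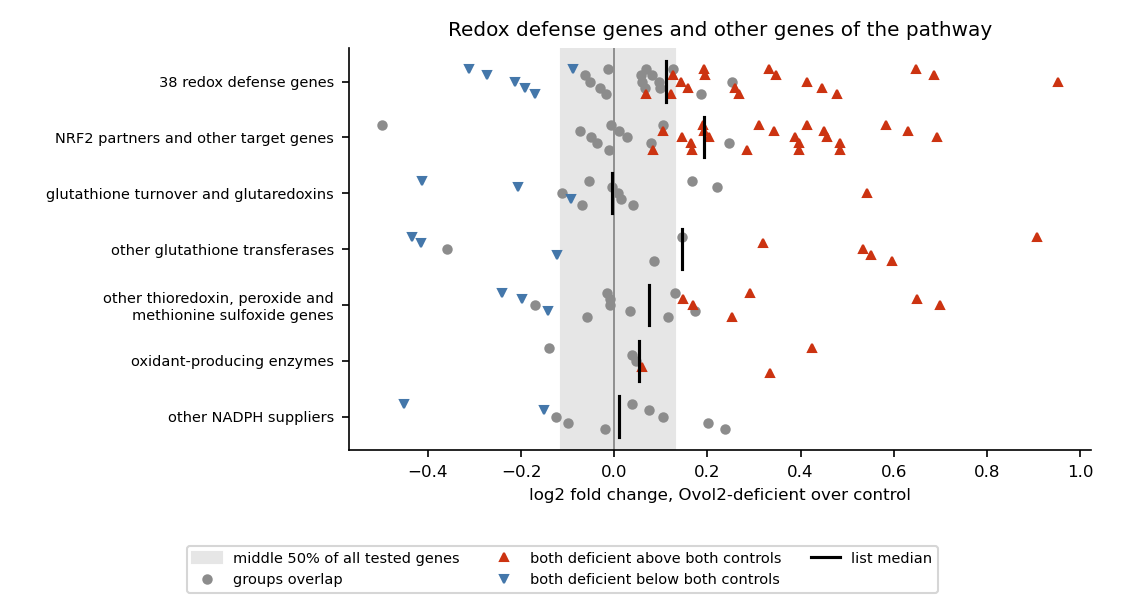
Log2 fold change of each tested gene in the 38 redox defense genes and in the 6 lists of other pathway genes. Black bars are list medians, the grey band is the middle 50% of all tested genes (-0.11 to 0.13), and triangles mark genes whose groups do not overlap. The list of Nrf2 partners and targets has 22 genes with both deficient values above both controls and 0 below.

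Markers of keratinocytes, of other cells and of cell states differed between the genotypes. Of the 10 keratinocyte markers 0 were called in limma, 4 were lower at an unadjusted p under 0.05, 6 had both deficient values below both controls, and the median log2 fold change was -0.25. The authors' deposited table called 3 of them lower. Of 8 tested suprabasal markers 0 were called in limma, 3 were higher at an unadjusted p under 0.05, 4 had both deficient values above both controls and 0 below, and the median was 0.88. The authors' deposited table called 0 of 8 suprabasal markers in either direction. All 12 tested fibroblast or feeder markers had both deficient values above both controls, with a summed FPKM over 16 genes of 317.8 and 299.2 in control cells against 403.2 and 429.9 in deficient cells. Of those 12, limma called 2 higher, and the authors' deposited table called 7 of 13 higher. None of the 16 was at 0 in every library, and Fap was listed at 0 in both controls. All 6 tested melanocyte markers were higher in both deficient libraries too, with sums over 8 genes of 62.6 and 68.1 against 91.4 and 84.9. None of the 6 was called in limma, and the authors' deposited table called 1 of 8 higher. All 10 proliferation genes were lower in both, with sums of 328.2 and 374.5 against 229.3 and 208.5. Of these, 7 were called lower in limma and 9 in the authors' deposited table. Over all tested genes limma called 0.837% higher and 0.511% lower, and the authors' deposited table called 2.33% and 2.10% of its rows. At an unadjusted p under 0.05 in limma the shares were 9.49% and 7.94%. Both deficient values lay above both controls for 24.1% of all tested genes and below them for 24.0%. Immune markers were level, at 10.8 to 12.6, with Cd207 and H2-Aa at 0 throughout, and erythroid markers summed to at most 0.382. The part of these cells and states in the values of Gstm1, Sod3 and the other genes was not tested.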

How the data were processed

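The 38 genes and the lists were chosen with earlier results of these data known. The authors deposited FPKM for 4 libraries. Their second table compares mutant with control and, per the file headers, gives each gene a mean normalized signal, a log2 fold change, the error of that fold change, a score of the test and p-values, raw and adjusted. The submitters' processing notes name TopHat, HTSeq and mm10. Versions, the annotation and the tool behind the FPKM are not given in the sources used here. Columns headed mutant were tied to the deficient group, not to single samples.

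From the FPKM table, 1 repeated header line and 27 rows with date-like symbols were removed and rows sharing a symbol summed. Between any pair of libraries 5 to 13 of the tested values were identical, so none was a copy. Genes whose FPKM averaged 1 or more were tested on log2(FPKM + 1), which understates changes of low genes, in R 4.3.3 by limma 3.58.1 (a term for group, variance trend, Benjamini-Hochberg adjustment, threshold 0.05, two-sided). The model was run on simulated data drawn from its own fitted spread, which cannot show whether its assumptions hold for these libraries. No count test was run, since the files hold no counts. All 38 genes could be named; of the other lists, called genes and the 2 largest changes without overlap in each direction; genes outside this rule are Sqstm1, Maff, Slc48a1 and Slc40a1, named after their values were seen. Read totals assume equal normalized totals. Coordinates are from GENCODE M21 on the build of mm10, and promoter sequences from RefSeq on GRCm38.p6. Alternatives were other pseudocounts, filters, scalings, no variance trend, a replicate block, each library left out, and the authors' deposited comparison.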

Additional observations from a re-analysis of the deposited data

How the results depend on the processing

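All 38 genes were compared under 13 alternatives, giving 489 values, of which 453 kept their direction and their side of the threshold. In the analysis of all 4 libraries 37 of the 38 were not called and had no call to lose, so this count says little about stability. The 1 called gene of the 38 was joined by Nqo1 with a filter of mean FPKM 5 (2 called, of 267 in all). No gene of the 38 was called with no filter on low values (3 genes in all), with the variance trend of limma turned off (6) or under quantile normalization (5), and 0 other pathway genes were called in these. Median-of-ratios scaling gave 82 genes in all and 2 other pathway genes, and a pseudocount of 5 gave 1 other pathway gene. The authors' deposited comparison called 513 genes, 5 of the 38 and 9 other pathway genes. With 1 library left out, calls ranged from 10 to 397 in all genes, 0 to 2 of the 38 and 0 to 8 other pathway genes, and the median of the 38 from 0.041 to 0.163. There 1 library stands for a group and is assumed to vary like the others.

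The replicate block, with numbers that pair the libraries only by name, gave 518 genes, 5 of the 38 (Fth1, Gstm1, Hmox1, Me1 and Nqo1) and 10 other pathway genes. Same-numbered libraries deviated together at r = 0.220 across genes.

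The log2 fold change changed sign under some alternative in 11 genes, none of them called in the analysis of all 4 libraries, and the cause was not tested. Under quantile normalization Gclc was at 0.000966 and Ftl1 at 0.0437. In the authors' deposited comparison Gclc was at 0.00536 and Gstp1 at 0.00381. Leaving out each library in turn gave these ranges: Nfe2l2 -0.0115 to 0.172, Gclc -0.0937 to 0.0684, Txn1 -0.154 to 0.0307, Prdx4 -0.193 to 0.0876, Prdx6 -0.0302 to 0.162, Gpx1 -0.0137 to 0.133, Gsta4 -0.0629 to 0.568, Gstp1 -0.0927 to 0.0592, Cat -0.0136 to 0.129, G6pdx -0.0889 to 0.226 and Ftl1 -0.100 to 0.0411. Depth limits Gpx2 and Gpx3 most.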
